A study of Mus musculus with 6 samples.

Results

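The 10 genes described here, called macrophage genes below, are listed as genes of resident macrophages of the thymus, though not all mark macrophages alone: the complement genes C1qa, C1qb and C1qc, the macrophage surface receptor genes Adgre1 and Csf1r, the receptor tyrosine kinase genes Mertk and Axl, Hmox1 and Cd163 of haem handling, and the adhesion gene Vcam1. They were picked out by symbol from a list drawn up with earlier results of these data known, and all 10 were found among the 20866 genes of the array, on 15 probes. The study addressed the NF-kB subunit RelA in the exit of regulatory T cells from the thymus. RNA came from C57BL/6 mice 1.5 to 2 weeks old, sorted into CD4+CD25hi thymocytes without CD8alpha (5 mice per pool) and, from 10 thymi per pool, into CD45-EpCAM+ thymic epithelial cells and a CD45+EpCAM- stromal fraction in which the submitters place macrophages and dendritic cells. Each population was taken from TNFalpha-KO mice, labelled TKO, and from mice with a TNFalpha and RelA double KO, labelled TAKO. By their labels all groups therefore lack TNFalpha, and within a population the genotypes differ in RelA. The last 2 sorts are shortened to EpCAM+ cells and CD45+ stromal cells.

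Each of the 6 groups was 1 pool on 1 one-colour array, so that a difference between genotypes within a population has no replicate check and no test. A level is the log2 signal relative to the 75th percentile of its array, so 0 is the 75th percentile. That percentile was a signal of 318 and 272 in CD4+CD25hi thymocytes, 370 and 108 in EpCAM+ cells and 633 and 675 in CD45+ stromal cells, TNFalpha-KO first. The EpCAM+ double-KO array was the dimmest, with 47.3% of probes well above background by the scanner software's test, against 55.1% to 66.2% on the other arrays. Rela had levels of 4.52 in the TNFalpha-KO and 2.66 in the double KO in thymocytes, 3.84 and 1.81 in EpCAM+ cells and 4.04 and 3.30 in CD45+ stromal cells, so that it was lower in each library labelled double KO but well above background in all of them. Tnf had levels of -0.64 and -0.78, -1.49 and -2.71, and -0.57 and -0.64 in the same order, and was well above background on every array but that of double-KO EpCAM+ cells, also where the label is TNFalpha-KO. Whether these probes lie in the deleted parts was not tested, and genotypes are given by label throughout. The number of arrays limits the precision.

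Thymic macrophages engulf the many thymocytes that die during selection. They depend on signals through the CSF1 receptor, recognise dying cells through bridging molecules such as GAS6 and protein S that bind MERTK and AXL, and break down haem with haem oxygenase 1. C1q, the first component of the classical complement pathway, is assembled from the A, B and C chains and is made mainly by macrophages and dendritic cells. VCAM1 binds the integrin alpha 4 beta 1 on leukocytes. It is an NF-kB target in endothelium and is also carried by thymic epithelium and by resident macrophages, so that it does not mark one cell type.

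The 3 C1q genes lie side by side on mouse chromosome 4, in the order C1qb, C1qc, C1qa, with 0 other genes between them in the RefSeq gene table. Because their levels stood in the same order in the 3 populations, the 250 bases before a RefSeq start of C1qb (chr4:136886201-136886450, minus strand) and of C1qc (chr4:136892915-136893164, minus strand) are printed 5′ to 3′, from RefSeq on build GRCm38.p6; the array design names build mm9, and no position was converted. The capitals mark GAGGAA, or its reverse complement, the core bound by PU.1, a transcription factor of myeloid cells.
C1qb: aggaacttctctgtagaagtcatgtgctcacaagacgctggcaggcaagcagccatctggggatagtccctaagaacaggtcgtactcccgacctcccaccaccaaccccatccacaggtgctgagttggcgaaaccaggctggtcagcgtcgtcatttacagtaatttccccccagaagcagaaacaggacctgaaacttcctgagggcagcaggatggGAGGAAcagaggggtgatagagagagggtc
C1qc: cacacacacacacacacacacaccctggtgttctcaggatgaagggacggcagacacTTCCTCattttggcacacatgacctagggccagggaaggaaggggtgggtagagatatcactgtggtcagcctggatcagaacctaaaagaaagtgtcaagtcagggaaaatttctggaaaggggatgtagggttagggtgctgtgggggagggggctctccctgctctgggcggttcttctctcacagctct
Each window held 1 match, 30 bases before the start and on the gene's own strand in C1qb, and 193 bases before it on the opposite strand in C1qc. On both strands, GAGGAA was found in 23.3% of 32851 promoter windows of this length. The loose kappaB frame, GGG and then CC after any 5 bases, searched on both strands with overlapping matches counted, had 2 matches in C1qb and 3 in C1qc, and 45.8% of windows held it. A match describes the letters of the window and is not a bound site.

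The macrophage genes with a level stood higher in both stromal populations than in CD4+CD25hi thymocytes. Cd163, the scavenger receptor for haemoglobin bound to haptoglobin, was not well above background on any of the 6 arrays and has no level. Of the 9 others, 7 were called higher in CD45+ stromal cells than in thymocytes and 0 lower, against 7.81% of all 13743 genes called higher and 4.8% lower, 12.6% in all (limma, Benjamini-Hochberg adjusted p under 0.05 and at least 2-fold). In EpCAM+ cells all 9 were called higher than in thymocytes, against 20.7% of all genes, with 18.3% lower and 38.9% in all, although for Mertk the bound against dim thymocyte signals was under 2-fold. Adgre1, C1qa, C1qc and Mertk were not well above background on either thymocyte array and entered these fits through their stromal signals alone. A call lower than in thymocytes was therefore not open to them, and their calls cannot be weighed against the shares of all genes. C1qb, Csf1r, Axl and Hmox1 were well above background on all 6 arrays, so that either direction was open. The median difference of the 9, dim genes included, was 4.71 and 3.73 (log2), beside -0.04 and -0.15 over all genes. The 4.71 is the value of Mertk and rests on dim thymocyte signals, against which its bound was 5.68-fold. For C1qb, Csf1r, Axl and Hmox1 the differences were 4.11, 2.20, 1.84 and 2.51 in CD45+ stromal cells. In EpCAM+ cells they were 2.95, 1.27, 1.98 and 3.73. The spread behind these p-values is that between arrays of different genotype, with no true replicate, and since each population had its own slide, a slide effect and a population difference cannot be told apart. Without any 1 of the 4 arrays of CD4+CD25hi and CD45+ stromal cells the 7 calls became 0.

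**Figure D1:**
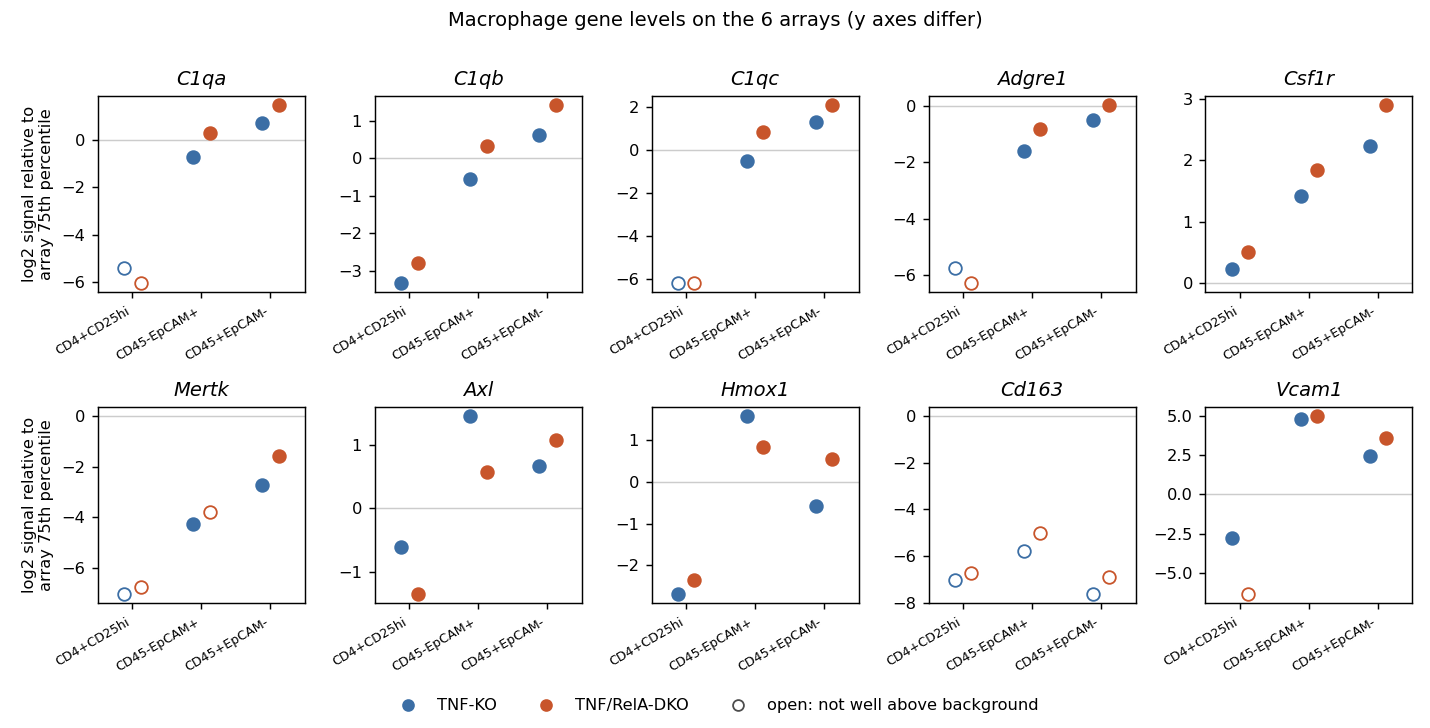
Level of each of the 10 genes (y axis, log2 signal relative to the 75th percentile of the array, scale set per panel) in the 3 populations (x axis), 1 point per array, blue for TNFalpha-KO (TNF-KO in the key) and orange for the double KO (TNF/RelA-DKO), open where the signal was not well above background. The thymocyte arrays are the lowest for all genes but Cd163, which is open throughout, and in CD45+EpCAM- cells the orange point lies above the blue one for the 9 genes with a level.

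C1qa, the A chain, had levels of -5.40 and -6.04 in CD4+CD25hi thymocytes, TNFalpha-KO then double KO, both not well above background, -0.71 and 0.29 in EpCAM+ cells, and 0.72 and 1.49 in CD45+ stromal cells. The groups do not overlap: the order from low to high was thymocytes, EpCAM+ cells, CD45+ stromal cells. Where a population is not well above background, its values were raised to the lowest level called so on each array, and the fold is a lower bound. C1qa was at least 55.1-fold higher in CD45+ stromal cells and at least 22.1-fold higher in EpCAM+ cells than in thymocytes. Between the stromal populations it differed by -1.32 (EpCAM+ minus CD45+ stromal, SE 0.47, limma adjusted p = 0.0839), which did not pass.

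C1qb, the B chain, was measured on all 6 arrays. Its levels were -3.33 and -2.81 in thymocytes, -0.56 and 0.32 in EpCAM+ cells and 0.64 and 1.44 in CD45+ stromal cells. The populations again stood in that order without overlap. C1qb was 4.11 (SE 0.15, limma adjusted p = 0.00919) higher in CD45+ stromal cells than in thymocytes, and 1.16 lower in EpCAM+ than in CD45+ stromal cells (-1.16, SE 0.15, limma adjusted p = 0.00879). C1qc, the C chain, had levels of -6.18 on both thymocyte arrays, not well above background, -0.50 and 0.85 in EpCAM+ cells and 1.32 and 2.14 in CD45+ stromal cells. It was at least 84.9-fold higher in CD45+ stromal cells and at least 28.9-fold higher in EpCAM+ cells than in thymocytes. The stromal populations differed by -1.56 (SE 0.37, limma adjusted p = 0.0329), a call lost with quantile normalization (limma adjusted p = 0.0627).

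Adgre1, which encodes an adhesion G protein-coupled receptor used as a macrophage marker, had levels of -5.74 and -6.27 in thymocytes, not well above background, -1.60 and -0.81 in EpCAM+ cells and -0.50 and 0.04 in CD45+ stromal cells. Compared with thymocytes it was at least 21.8-fold higher in CD45+ stromal cells and at least 11.1-fold higher in EpCAM+ cells, and the stromal populations did not differ at the threshold (-0.97, SE 0.38, limma adjusted p = 0.102). A second, dimmer probe of Adgre1 was well above background on the double-KO thymocyte array, at -4.27. Csf1r, the receptor for the products of Csf1 and Il34 on which macrophages depend, was measured in every group: 0.23 and 0.50 in thymocytes, 1.42 and 1.85 in EpCAM+ cells and 2.23 and 2.91 in CD45+ stromal cells. The order is the same as for C1q, over a narrower range, with CD45+ stromal cells 2.20 (SE 0.16, limma adjusted p = 0.0127) above thymocytes. The 3 probes of Csf1r disagreed: one had levels of -0.48 and 0.14 in thymocytes, above its -1.97 and -0.41 in EpCAM+ cells and its -0.92 and -0.71 in CD45+ stromal cells, which turns the order. With the mean over probes Csf1r lost its call in both stromal contrasts with thymocytes, at 1.05 (limma adjusted p = 0.0503) and 0.30 (limma adjusted p = 0.268).

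Mertk, a receptor for apoptotic cells through GAS6 and protein S, was the dimmest of the genes with a level. It had levels of -7.03 and -6.72 in thymocytes, not well above background, -4.26 and, not well above background, -3.77 in EpCAM+ cells, and -2.74 and -1.60 in CD45+ stromal cells. CD45+ stromal cells were at least 5.68-fold and EpCAM+ cells at least 1.58-fold above thymocytes, and EpCAM+ cells, with 1 of 2 arrays well above background, differed from CD45+ stromal cells by -1.84 (SE 0.25, limma adjusted p = 0.00951). With normexp background correction its differences from thymocytes were 0.80 (limma adjusted p = 0.104) and 0.71 (limma adjusted p = 0.0749), and between the stromal populations -0.09 (limma adjusted p = 0.783). Axl, of the same receptor family, did not follow Mertk. Its levels were -0.60 and -1.34 in thymocytes, 1.45 and 0.57 in EpCAM+ cells, and 0.67 and 1.07 in CD45+ stromal cells, so that the stromal populations overlapped (0.14, SE 0.38, limma adjusted p = 0.774). It was 1.98 (SE 0.38, limma adjusted p = 0.0199) higher in EpCAM+ cells than in thymocytes, and 1.84 (SE 0.38, limma adjusted p = 0.0572) higher in CD45+ stromal cells, which did not pass; with normexp it did (1.58, limma adjusted p = 0.0427).

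Hmox1, the inducible enzyme that breaks down haem, had levels of -2.69 and -2.35 in thymocytes, 1.59 and 0.84 in EpCAM+ cells, and -0.58 and 0.55 in CD45+ stromal cells. Here EpCAM+ cells stood highest, 3.73 (SE 0.50, limma adjusted p = 0.00883) above thymocytes. CD45+ stromal cells were 2.51 (SE 0.50, limma adjusted p = 0.0534) above thymocytes, and the stromal populations differed by 1.23 (SE 0.50, limma adjusted p = 0.113), so that neither passed. Vcam1 also stood highest in EpCAM+ cells, at 4.77 and 5.0, against 2.42 and 3.55 in CD45+ stromal cells and -2.76 and, not well above background, -6.35 in thymocytes. Its difference between CD45+ stromal cells and thymocytes was 7.55 (SE 1.30, limma adjusted p = 0.0421), with 1 of 2 thymocyte arrays well above background; it was 5.41 without the dim one and 9.68 without the other, and the call was lost without any 1 of the 6 arrays and with quantile normalization (limma adjusted p = 0.0606). Between thymocytes and EpCAM+ cells it was 9.44 (SE 1.30, limma adjusted p = 0.00918), and the stromal populations differed by 1.89 (SE 1.30, limma adjusted p = 0.28).

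Between the stromal populations, 3 of the 9 genes were called lower in EpCAM+ cells (C1qb, C1qc and Mertk) and 0 higher, against 19.2% and 19.4% of all genes, 38.6% in all. The count was 0 to 5 when an array was left out: it was 5 without either CD4+CD25hi array, 1 without the TNFalpha-KO and 0 without the double-KO CD45+ stromal array. Macrophage transcripts were thus measured in the sort for EpCAM+ cells too, where Ptprc, which encodes CD45, had levels of -0.46 and 0.72, against 3.43 and 3.67 in CD45+ stromal cells, and where Krt8 had levels of 6.38 and 6.44. In bulk RNA, fewer cells of a type and less RNA per cell cannot be told apart.

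**Figure D2:**
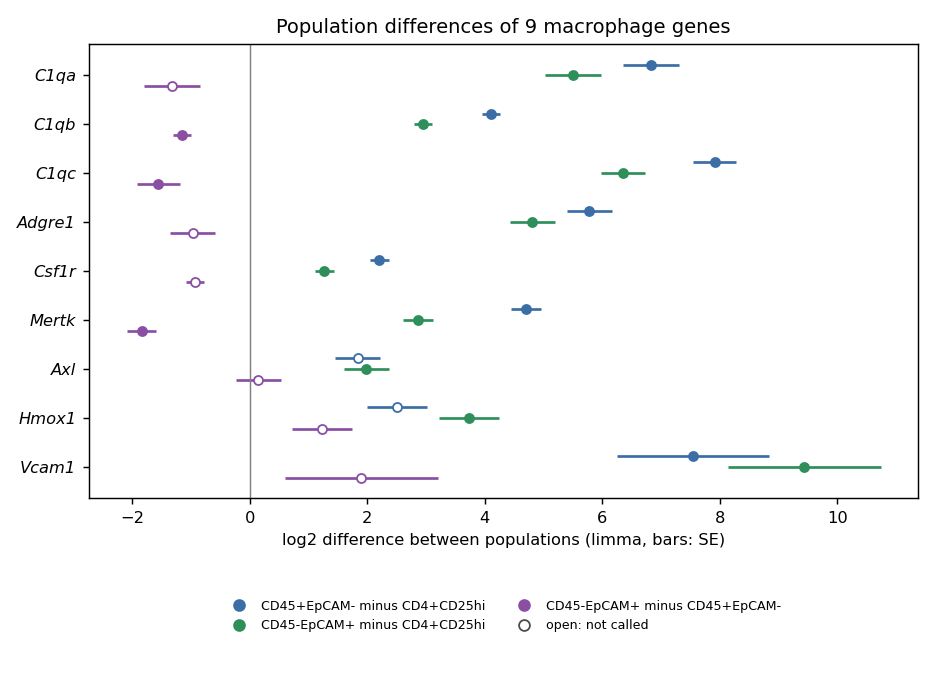
Difference between populations (x axis, log2; bars are the limma SE) for the 9 genes with a level (y axis); filled points are called at adjusted p under 0.05 and at least 2-fold. All blue and green points, the stromal populations minus CD4+CD25hi thymocytes, lie above 0, with Axl and Hmox1 open in blue, and the filled purple points, CD45-EpCAM+ minus CD45+EpCAM-, are C1qb, C1qc and Mertk.

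In the CD45+ stromal library labelled double KO, the listed genes with a level were higher. All 9 genes with a level were higher in the double KO than in the TNFalpha-KO, against 48.8% of all 14588 genes measured there, with a median difference of 0.81 (log2, double KO minus TNFalpha-KO) beside -0.01 over all genes. Mertk, Hmox1 and Vcam1 were at least 2-fold higher, at 2.19-fold, 2.20-fold and 2.19-fold, which is 3 of 9 against 1.82% of all genes; 0 were at least 2-fold lower, against 2.08%, and 3.89% of all genes passed in either direction. Of these 3, Hmox1 and Vcam1 did not follow the population order of the C1q genes and stood highest in EpCAM+ cells. The C1q genes differed by 0.77, 0.81 and 0.81 for C1qa, C1qb and C1qc, Csf1r by 0.68, Adgre1 by 0.54 and Axl by 0.40. The 95th percentile of all genes in this pair was 0.61, so that Adgre1 and Axl lay within it and 7 genes beyond it. Probes of 1 gene differed from each other in this pair with an SD of 0.21, and every other probe of a member had the same sign: 0.53 for the second probe of Adgre1, 0.46 and 0.22 for Csf1r, 0.51 for Hmox1 and 1.44 for Vcam1. The direction held for all 9 genes under each of the normalizations tried. Median centring and the deposited table shift all genes of a pair alike, so this check rests on normexp and quantile normalization. With normexp only Vcam1 stayed at least 2-fold higher (Mertk 0.70 and Hmox1 0.95), and Hmox1 was at 0.82 with the mean over probes.

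In EpCAM+ cells the genes divided. C1qc was 2.54-fold higher in the double KO and C1qa just under 2-fold, at 1.0 (log2), with C1qb at 0.88, Adgre1 at 0.79, Csf1r at 0.42 and Vcam1 at 0.23. Axl and Hmox1 were lower, by 0.88 and 0.75. In all 6 of 8 measured genes were higher, against 53% of all 13208 genes, with a median of 0.60 beside 0.03 over all genes, and 1 was at least 2-fold higher and 0 lower, against 5.1% and 9.3% of all genes, 14.4% in all. Mertk, dim on the double-KO array, gave no fold. The 95th percentile of all genes was 1.01, beyond which only C1qc lay among the 8. With quantile normalization C1qa (1.15) and C1qb (1.01) were also at least 2-fold higher, and with normexp C1qc was at 0.97 and Vcam1 turned to -0.28. Both probes of Hmox1 were lower, the second by 0.38. The other probes of Csf1r were 0.59 and 1.56 higher, and Csf1r stood at 0.86 with the mean over probes and at 0.09 with normexp.

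Transcripts of other leukocytes differed in the same EpCAM+ pair. Ptprc was 1.18 higher in the double KO, and the 5 T cell markers measured of 6 were all higher, with a median of 0.85, Foxp3 being not well above background on either array. Their summed level, the log2 of the added signals of a list, was 5.66 in the TNFalpha-KO and 6.57 in the double KO. The part of this in the difference of C1q was not tested. In CD45+ stromal cells Ptprc differed by 0.23, and the 6 T cell markers had a median of -0.14, with summed levels of 8.12 and 8.11. The summed levels in CD4+CD25hi thymocytes were close to these, at 8.18 and 8.13. Cd8a had levels of 3.74 and 3.53 in CD45+ stromal cells, against -2.29 and -3.07 in the CD4+CD25hi thymocytes. The CD45+ stromal sort thus also held T cell transcripts at about thymocyte level.

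In CD4+CD25hi thymocytes 5 of the 10 genes gave a difference. Vcam1 was well above background in the TNFalpha-KO only and was at least 3.36-fold lower in the double KO; at least 2-fold lower were 1.28% of all 12936 genes, higher 1.68% and either 2.95%. The bound rests on 1 of 2 probes, since the second was not well above background on either array, and was 0.21 lower with normexp. Axl was 0.74 lower. C1qb was 0.53 higher, Hmox1 0.35 and Csf1r 0.28, each inside the range from the 5th to the 95th percentile of all genes, -0.57 to 0.68. Thus 3 of 5 were higher, against 47.8% of all genes. Adgre1, C1qa, C1qc, Mertk and Cd163 were not well above background on either array.

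**Figure D3:**
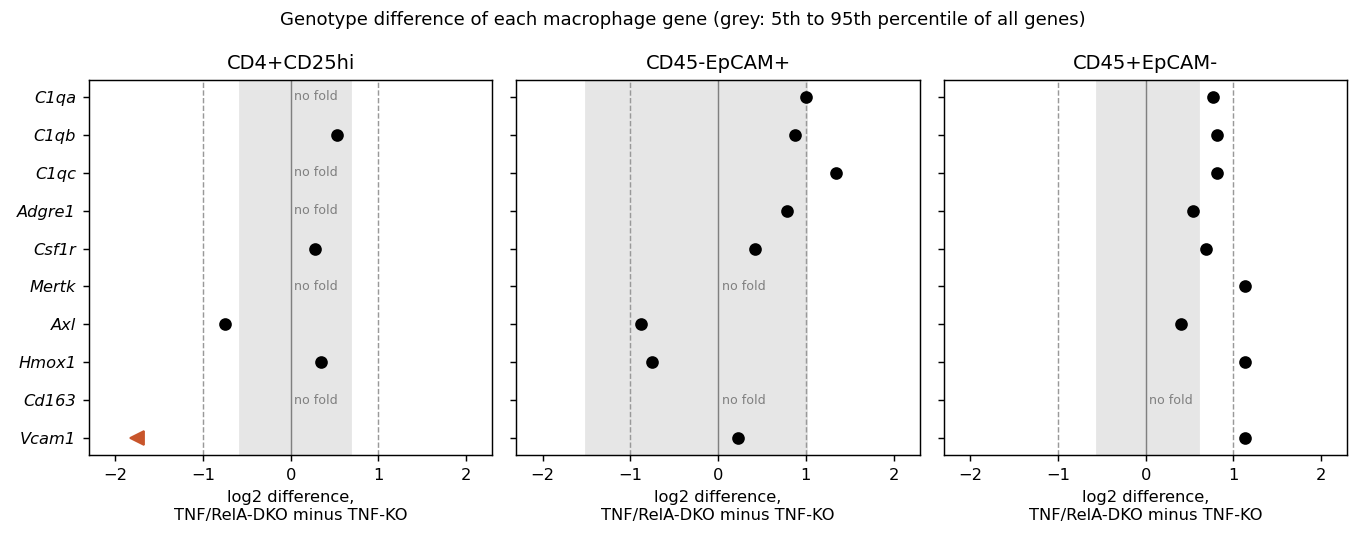
Difference between genotypes (x axis, log2, double KO minus TNFalpha-KO) of each of the 10 genes (y axis) in the 3 populations; circles are measured on both arrays, the triangle is a bound, dashed lines mark 2-fold, the grey band runs from the 5th to the 95th percentile of all genes, and "no fold" marks genes too dim. In CD45+EpCAM- cells all 9 points lie right of 0, while Axl and Hmox1 lie left of 0 in CD45-EpCAM+ cells and Vcam1 and Axl in CD4+CD25hi thymocytes.

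No gene had a genotype effect common to the 3 populations that passed. Of the 9 macrophage genes 0 were called (limma with population as a block, adjusted p under 0.05), as were 0% of all 13743 genes. At an unadjusted p under 0.05 there were 3, C1qb (0.74, SE 0.13, limma adjusted p = 0.679), Csf1r (0.46, SE 0.13) and Mertk (0.64, SE 0.21), all higher, where 6.35% of all genes stood, 3.82% higher. Over the stromal populations alone, a fit chosen after the data were seen, 5 of 9 had an unadjusted p under 0.05, all higher, against 3.78% of all genes (2.01% higher), and 0 passed the adjustment. These were C1qa (0.88, SE 0.18), C1qb (0.84, SE 0.17), C1qc (1.08, SE 0.23), Adgre1 (0.66, SE 0.19) and Mertk (0.81, SE 0.25), each with a limma adjusted p of 0.872. For Mertk both fits include signals not well above background, and 1 genotype pair, that of CD45+ stromal cells, was measured on both sides.

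The partners of these genes were read from lists of their pathways. Of the ligands of the CSF1 receptor, Csf1 had levels of 0.95 and 1.03 in EpCAM+ cells, which was 4.96 (SE 0.26, limma adjusted p = 0.00253) above CD45+ stromal cells, and Il34 had levels of 0.34 and 1.33 there, 3.71 (SE 0.50, limma adjusted p = 0.00905) above them. Il34 was 0.99 higher in double-KO EpCAM+ cells and Csf1 0.08. Of the 12 genes of the CSF1 receptor axis, 2 of 11 measured were at least 2-fold lower in double-KO EpCAM+ cells and 0 higher, where 9.3% and 5.1% of all genes were, and 1 of 12 was higher and 1 lower in CD45+ stromal cells, against 1.82% and 2.08%. Csf2rb, the shared chain of the GM-CSF receptor, was 2.57 lower in the former. In CD45+ stromal cells the dendritic cell factor gene Irf8 was 1.78 lower. Of the 12 genes, 5 were higher by any amount there in the double KO, against 48.8% of all genes, with a median of -0.03.

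Gas6, which bridges dying cells to MERTK and AXL, had levels of 6.67 and 7.33 in EpCAM+ cells and -2.20 and -1.88 in CD45+ stromal cells (difference 9.04, SE 0.28, limma adjusted p = 0.00183). Pros1, which encodes protein S, was 4.81 (SE 0.27, limma adjusted p = 0.0026) higher in EpCAM+ than in CD45+ stromal cells. In the double KO, Gas6 was 0.66 and 0.32 higher and Pros1 0.69 and 0.30 higher in EpCAM+ and CD45+ stromal cells, and Tyro3, the third receptor of the family, differed by -0.29 and 0.18. Of 14 genes of apoptotic cell clearance, 13 were on the array. In CD45+ stromal cells 11 of 13 were higher in the double KO, against 48.8% of all genes, with a median of 0.30, and 1 was at least 2-fold higher, against 1.82%: Tgm2, tissue transglutaminase, by 1.82. The endocytic receptor gene Lrp1 was 0.86 and the integrin gene Itgb5 0.77 higher. In EpCAM+ cells 0 of 9 measured differed 2-fold. Stab1, a scavenger receptor gene, was 0.87 higher in double-KO thymocytes.

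C1r and C1s are the proteases that complete the C1 complex with C1q. C1ra had levels of 0.29 and 0.74 in EpCAM+ cells, 6.08 (SE 0.13, limma adjusted p = 0.00173) above CD45+ stromal cells, where 1 of 2 arrays was well above background. C1s1 had levels of 0.75 and 0.99 in EpCAM+ cells and was not well above background in either other population. Of 14 complement genes, 2 of 11 measured in EpCAM+ cells were at least 2-fold higher in the double KO and 3 lower, with a median of 0.23. C3, Cfb and C2 were lower, at -1.94, -1.89 and -1.57. The shares of all genes there were 5.1% and 9.3%. In CD45+ stromal cells 0 of 12 differed 2-fold, against 3.89% of all genes; C4b was 0.74 and Lrp1 0.86 higher, close to the C1q genes.

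Among 14 genes of haem and iron handling, the iron exporter gene Slc40a1 and Spic, which encodes a factor of iron-recycling macrophages, stood in the same order across the populations as the C1q genes. Slc40a1 was 6.16 (SE 0.84, limma adjusted p = 0.0282) higher in CD45+ stromal cells than in thymocytes, where 1 of 2 arrays was well above background, and Spic was not well above background on either thymocyte array. In the double KO they were 0.96 and 0.87 higher in CD45+ stromal cells. In EpCAM+ cells Slc40a1 stood at -1.82 and -1.83, while Spic was at least 1.53 (log2) lower. Slc11a1, a metal transporter gene of phagosomes, was 0.99 higher in CD45+ stromal cells. Hp, which encodes haptoglobin, was 2.07 higher there and 1.36 lower in EpCAM+ cells, the same opposite directions as Hmox1. Of the list, 1 of 13 measured was at least 2-fold higher in CD45+ stromal cells, against 1.82% of all genes, and 3 of 14 were lower in EpCAM+ cells, against 9.3%. By any amount, 8 of the 13 were higher in CD45+ stromal cells, against 48.8% of all genes, with a median of 0.21. Nfe2l2 and Bach1 stood at -0.32 and -0.31 there.

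Of the partners of VCAM1 and related adhesion genes, Itga4, the integrin alpha 4 chain, had levels of 2.40 and 2.83 in thymocytes, 0.13 and 1.23 in EpCAM+ cells and 2.33 and 2.71 in CD45+ stromal cells. It was lowest where Vcam1 was highest, with EpCAM+ cells minus thymocytes at -1.94 (SE 0.24, limma adjusted p = 0.00734). Madcam1, another vascular adhesion gene, was lower in the double KO in all 3 populations, with differences of -1.72 in thymocytes, -2.44 in EpCAM+ cells and -1.21 in CD45+ stromal cells, whereas Vcam1 was higher in CD45+ stromal cells. Itga4, Icam2 and Itgb7 were 1.09, 1.05 and 0.85 higher in double-KO EpCAM+ cells, where Ptprc was higher too. Of the partner and adhesion genes, 3 of 7 measured were higher in double-KO CD45+ stromal cells, against 48.8% of all genes, with a median of -0.05.

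Of 18 other macrophage genes, 17 were on the array. In CD45+ stromal cells 13 of 17 were higher in the double KO, against 48.8% of all genes, with a median of 0.40, and 4 were at least 2-fold higher and 0 lower, against 1.82% and 2.08%, Mrc1 (1.22), Fcgr1 (1.01) and Cd14 (1.01) among them. The list was not uniform: Cx3cr1 (-0.57), Aif1 (-0.52), Marco (-0.39) and Lyz2 (-0.37) were lower in the same pair. In EpCAM+ cells 3 of 15 were at least 2-fold higher, Cd5l (2.01), Fcgr1 (1.77) and Itgam (1.54), and 3 lower, Lyz2 (-1.43) and Aif1 (-1.17) among them, against 5.1% and 9.3% of all genes, with a median of -0.11. Itgam was bright in thymocytes too, at 4.64 and 5.39, against 3.49 and 5.03 in EpCAM+ cells, so that it does not mark macrophages alone here. Siglec1 and Timd4, further genes of resident macrophages, were not well above background in EpCAM+ cells. Timd4 had levels of -2.62 and -2.44 in CD45+ stromal cells.

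Genes of alternatively activated macrophages differed more than the resident genes. Of 6, 5 were at least 2-fold higher in the double KO in EpCAM+ cells and 5 in CD45+ stromal cells, with medians of 2.74 and 2.42. The shares of all genes were 5.1% and 1.82%. Mrc1 stood at -0.12 in EpCAM+ cells and Cd209f at -0.73 in CD45+ stromal cells. Chil3 was 2.83 and 2.89 higher, Retnla 3.16 and 2.26 and Ccl24 2.08 and 2.58, and the summed level of the list went from 1.90 to 4.82 and from 0.94 to 3.18. The rise of Chil3 was not confined to the stromal sorts, since it was 2.62 higher in double-KO CD4+CD25hi thymocytes too. Of 6 dendritic cell genes in CD45+ stromal cells, 3 were at least 2-fold lower, against 2.08% of all genes: Cd209a by 1.92, Flt3 by 1.83 and Itgax by 1.46. Zbtb46 and Siglech stood at -0.08 and -0.03, and Xcr1, dim in the double KO, was at least 0.58 lower. The summed level of the list, 6.93 and 6.88, is set by Siglech, which was also bright in thymocytes. The B cell marker Ms4a1 was lower, at -0.61. Of the monocyte and granulocyte markers, S100a8 was 2.19 and S100a9 2.07 higher in CD45+ stromal cells and both were lower in EpCAM+ cells, at -1.82 and -1.86, whereas Elane was 0.31 and 0.52 higher, and Mpo differed by 0.11 and -2.52, with Ccr2 at 0.15 in CD45+ stromal cells. The list had summed levels of 2.58 and 4.42 in CD45+ stromal cells and 4.93 and 3.12 in EpCAM+ cells. Thymic epithelial markers had summed levels of -2.04 and -2.25 in CD45+ stromal cells, against 7.57 and 7.59 in EpCAM+ cells, with Foxn1 and Psmb11 not well above background on either array. What part such shifts in cell content have in the macrophage gene differences was not tested.

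**Figure D4:**
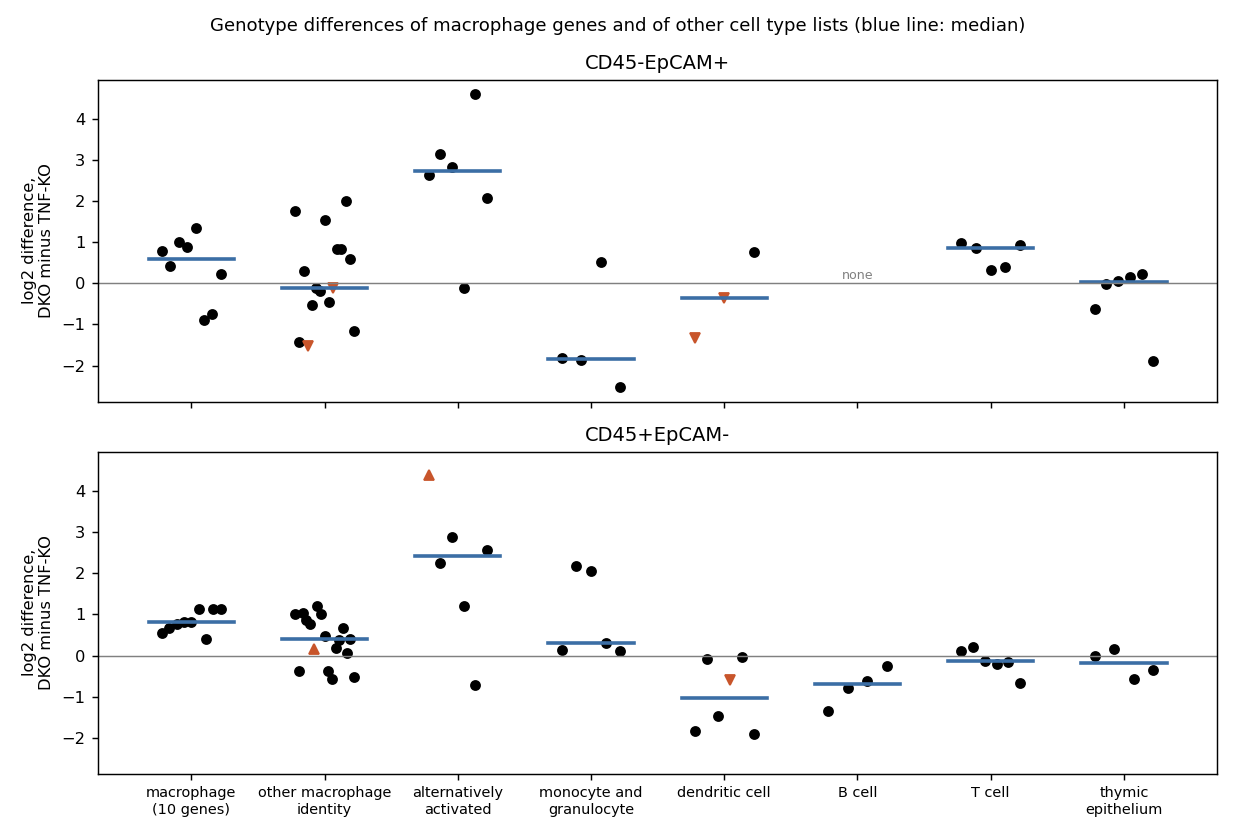
Differences between genotypes (y axis, log2, double KO minus TNFalpha-KO) of single genes of 8 lists (x axis) in CD45-EpCAM+ cells (top) and CD45+EpCAM- cells (bottom); circles are measured on both arrays, triangles are bounds and the blue line is the median. The macrophage genes described here lie between 0.40 and 1.14 in CD45+EpCAM- cells, below the alternatively activated genes with a median of 2.42 and above the dendritic cell genes with a median of -1.02.

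Of the 13743 genes in the population fits, those with a pattern most like the mean of the 3 C1q genes over the 6 arrays were Tspan4 (r = 0.999), Mcoln2 (r = 0.997), Cd302 (r = 0.996), Rab3il1 (r = 0.994) and Ttc7b (r = 0.994). Those most like Vcam1 were Gsdme (r = 0.996), Mycn (r = 0.991), Ccl3 (r = 0.991), Tnfrsf21 (r = 0.989) and Uaca (r = 0.989). Over the same arrays C1qa and Mertk had r = 0.97 and C1qa and Hmox1 r = 0.83. These are Pearson correlations over 6 arrays, which share the low thymocyte levels of these genes, and they are given as a description.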

How the data were processed

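The 6 samples were hybridised to one-colour (Cy3) Agilent arrays, 1 for each genotype of each sorted population. Per the file headers, the authors extracted spot intensity values with Feature Extraction 10.5.1.1 (version 9.5 per the submitters' processing notes). The deposited table of log2 values matched processed signals put on a log2 scale and lowered by the 75th percentile of their array, within a fixed offset per array, with 100% of probes within 0.05; its scale is not stated in the sources used here. The median of its columns in the TNFalpha-KO and the double KO was -3.71 and -3.61 (thymocytes), -2.84 and -2.72 (EpCAM+ cells) and -3.63 and -3.58 (CD45+ stromal cells).

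Control and outlier spots were left out, spots of a probe were averaged as log2 processed signal, and each array's 75th percentile was subtracted; 39419 of 39429 probes were used. Accessions were named through RefSeq (GRCm38.p6): 27472 probes (69.7%) had 1 symbol. A gene was read by its brightest probe over the 6 arrays. A gene entered a genotype difference if well above background on 1 of the 2 arrays; a dim side was set to the array's lowest level well above background if that was higher than its own, giving a bound. Where that left no fold the gene was left out: 119, 2605 and 27 genes in thymocytes, CD45-EpCAM+ and CD45+EpCAM- cells.

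Populations were compared with limma 3.58.1 (R 4.3.3), genotype as covariate, over 13743 genes, with 2 residual and 1.74 prior degrees of freedom, with Benjamini-Hochberg adjustment. The common genotype effect had population as a block. The population test was checked on simulated data: of 200 changed genes, 44.5%, 100% and 100% were recovered at log2 sizes of 1, 2 and 4 between CD45+EpCAM- and CD4+CD25hi cells. Every simulated gene had the same SD, the median over genes, and no genotype effect. Real genes differ in spread, with an SE of 0.15 for C1qb and 1.30 for Vcam1. The shares therefore do not hold for genes of wider spread, and calls among the genes outside the 200 were not counted. How far the shares depend on the population differences of those other genes was not tested. The alternatives were normexp (offset 50, on the median signals, since the files used here hold no mean signal column), quantile normalization, median centring, the mean over probes, the deposited table, other filters, other covariates and leaving out each array. The 10 genes and the lists were chosen with earlier results of these data known. The named genes are the 10, up to 4 genes per pathway list with the largest genotype difference measured on both arrays, their ligands and partners, and the 5 with the most similar pattern to C1q and to Vcam1; other genes named were members of the cell type lists or were chosen after their values were seen. Some genes of these lists are not reported here.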

Additional observations from a re-analysis of the deposited data

Results flagged for a closer look

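The genotype difference of 3 of the 10 genes had opposite directions in 2 populations. The difference between populations was not tested, since each rests on 1 array per genotype. Vcam1 was 1.13 (log2) higher in double-KO CD45+EpCAM- cells and at least 1.75 lower in double-KO CD4+CD25hi thymocytes, at least 2.88 apart. Hmox1 was 1.14 higher in CD45+EpCAM- cells and 0.75 lower in CD45-EpCAM+ cells, 1.89 apart. Axl was 0.40 higher in CD45+EpCAM- cells and 0.88 lower in CD45-EpCAM+ cells, 1.29 apart. The directions of Hmox1 and Axl in these populations were the same under each normalization tried. Of those, only normexp and quantile normalization change the genes of a pair by unlike amounts. No group had the 4 samples that a check for an outlying sample needs.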

How the results depend on the processing

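No paired analysis was possible because the labels give no replicate numbers and each group is 1 array; the fit with population as a block compares the genotypes within populations. The count of the 10 genes at least 2-fold apart between genotypes went from 1 to 0 in CD4+CD25hi cells with normexp, with the mean over probes and with both arrays required well above background, from 1 to 0 (normexp) or 3 (quantile normalization) in CD45-EpCAM+ cells, and from 3 to 1 with normexp in CD45+EpCAM- cells. Leaving out 1 array gave 0 to 7 calls between CD45+EpCAM- and CD4+CD25hi cells, 6 to 9 between CD45-EpCAM+ and CD4+CD25hi cells and 0 to 5 between the stromal populations; with 1 array left in a group its spread is taken from the others. The stromal count went from 3 to 5 with normexp and to 1 without the genotype covariate. The sign turned for Vcam1 between genotypes in CD45-EpCAM+ cells (-0.28, normexp) and for Axl between the stromal populations, 0.14 as reported, at -0.0064 with normexp and at -0.22 and -0.47 without the TNFalpha-KO array of either; leaving out each array in turn gave -0.47 to 0.75. The cause was not tested. Of the other single-gene values, 101 of the genotype differences and 280 of the population differences kept direction and side of the threshold, 5 and 55 no longer passed, and 2 and 13 newly passed. These counts add up every alternative, so 1 gene in 1 comparison is counted once for each alternative in which it was read. Of the 101 and 280, 22 and 27 come from the deposited table, which repeats the main values. Signal over background limited Cd163, which could not be read, and Mertk.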
